A study of Danio rerio with 5 samples.

Results

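The 137 solute carrier genes measured on this zebrafish array were followed over 5 exposure conditions. They are all genes of the platform annotation whose symbol begins with slc and a number and that have at least 1 probe set paired with exactly 1 symbol, out of 8793 genes with such a probe set. Where several probe sets covered a gene, the one with the highest mean over the 5 arrays stood for it, and no gene was left out for a low level. Total RNA came from young adult wild-type zebrafish of the AB line, exposed for 24 h without food to the BTF mix (benzene, toluene and formaldehyde together), to benzene, to toluene or to formaldehyde, all prepared in DMSO, or to DMSO as the vehicle. Each condition had 1 Affymetrix array, so no value below has a replicate and no test was possible. The sources used here give neither doses nor the tissue nor how many fish stand behind an array, and the labels carry the same sex entry for all fish, which names neither a male nor a female group.

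Solute carriers are membrane proteins that move sugars, amino acids, ions, metals, vitamins and other small molecules across the plasma membrane or organelle membranes. Some work by exchange or facilitated diffusion, and others use a sodium or proton gradient set up by ion pumps. The number after slc gives the family, and the families differ in what they carry. Families slc2 and slc5 include the glucose carriers, and slc1, slc6, slc7 and slc38 many amino acid carriers. Most slc25 members are carriers of the inner mitochondrial membrane, and slc4, slc9, slc12 and slc26 include many ion carriers. Apical carriers of the gut and kidney take up nutrients, glial carriers clear glutamate, and band 3 of the red cell exchanges chloride for bicarbonate.

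The genes were sorted into 11 classes by family number alone. Amino acid carriers numbered 25, sugar carriers 14, mitochondrial carriers 25 and ion carriers 26. The remaining classes were metal carriers (14), nucleotide sugar carriers (8), carriers of organic ions, peptides and bile acids (7), carriers of lipids, vitamins and nucleosides (7), monocarboxylate carriers (5), vesicular carriers (3) and others (3). Family numbers are a coarse guide: slc6 also holds neurotransmitter carriers and slc5 holds vitamin and monocarboxylate carriers. Not all slc25 carriers are mitochondrial. Among the 137, slc4a1ap (an adaptor protein of the anion exchanger) and slc7a6os (named for the strand opposite slc7a6) carry such symbols without being carriers, and were kept under the rule. Mitoferrin 1 (slc25a37) and the dietary peptide carrier (slc15a1b) were present, while slc2a1a, slc5a1, slc25a5, slc7a5 and slc24a5 were not analysed here.

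The mix array stood apart from the others, and it did so for oocyte transcripts. Of 25 listed oocyte genes, 16 were measured, and all 16 were at least 2-fold lower with the mix than with DMSO, with a median difference of -6.75 on the log2 scale. Their summed signal, as log2, was 10.61 with the mix, against 17.22 to 17.29 on the other 4 arrays, and their values with the mix lay between 5.34 and 8.26. Markers of most other tissues were higher with the mix than with DMSO: skin in 13 of 14 genes, intestine in 10 of 12, exocrine pancreas in 14 of 14, skeletal muscle in 13 of 14, liver in 12 of 13, neurons and glia in 9 of 10 and erythrocytes in 5 of 6, each by at least 2-fold. Ionocyte and gill markers were so in 3 of 4 genes. Kidney markers had 1 of 5 genes at least 2-fold higher and 1 lower, and the higher one, cdh17, was also on the intestine list. Of the melanophore and iridophore list 3 genes were measured, all melanophore genes, and 0 were 2-fold apart either way. Of all genes, 20.6% were at least 2-fold higher with the mix and 27.8% lower. In whole-body or whole-organ RNA, fewer cells of a type and less RNA per cell cannot be told apart. The marker lists were chosen with earlier results of these data known, so their counts are no independent measure of tissue make-up. The part that tissue make-up had in the differences of the solute carriers was not tested, and marker values are given beside some of the results.

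On the 4 arrays without the mix, most solute carrier genes kept close to the same level. For 93 of the 137 genes the highest and lowest of those 4 values lay within 0.5 on the log2 scale, and for 11 they lay more than 1 apart. The median range over those arrays was 0.33 for the solute carriers and 0.31 for all genes. With the mix, 41 genes (29.9%) lay at least 2-fold above all 4 other arrays and 23 (16.8%) at least 2-fold below all 4, beside 17.6% and 23.5% of all genes. Of the 137, 45 reached the median of all deposited values, 7.02, on every array, while 25 reached it on the mix array alone and 20 on some other array but not on the mix. A further 38 stayed below it throughout. On at least 1 array 99 of the 137 reached it, beside 6675 of all 8793 genes. For the other counts the shares of all genes were not taken.

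Few solute carriers were 2-fold apart from DMSO with a single compound. With benzene 3 of 137 genes lay at least 2-fold above DMSO and 0 as far below it, where 1.65% and 0.842% of all 8793 genes were. With toluene the counts were 7 higher (5.11%) and 0 lower, beside 1.74% and 0.535% of all genes. With formaldehyde they were 2 higher and 1 lower, beside 1.1% and 1.94%. The 3 comparisons share the DMSO array, so a low or high DMSO value enters all of them. Set against the mean of the other 3 arrays without the mix instead, benzene had 1 higher gene (beside 1.24% of all genes), toluene 4 (1.44%) and formaldehyde 0 (0.625%), while 2 were lower with formaldehyde (2.49%). In all, 8 genes passed the 2-fold limit against DMSO on at least 1 of the 3 arrays, and each is described below.

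**Figure D1:**
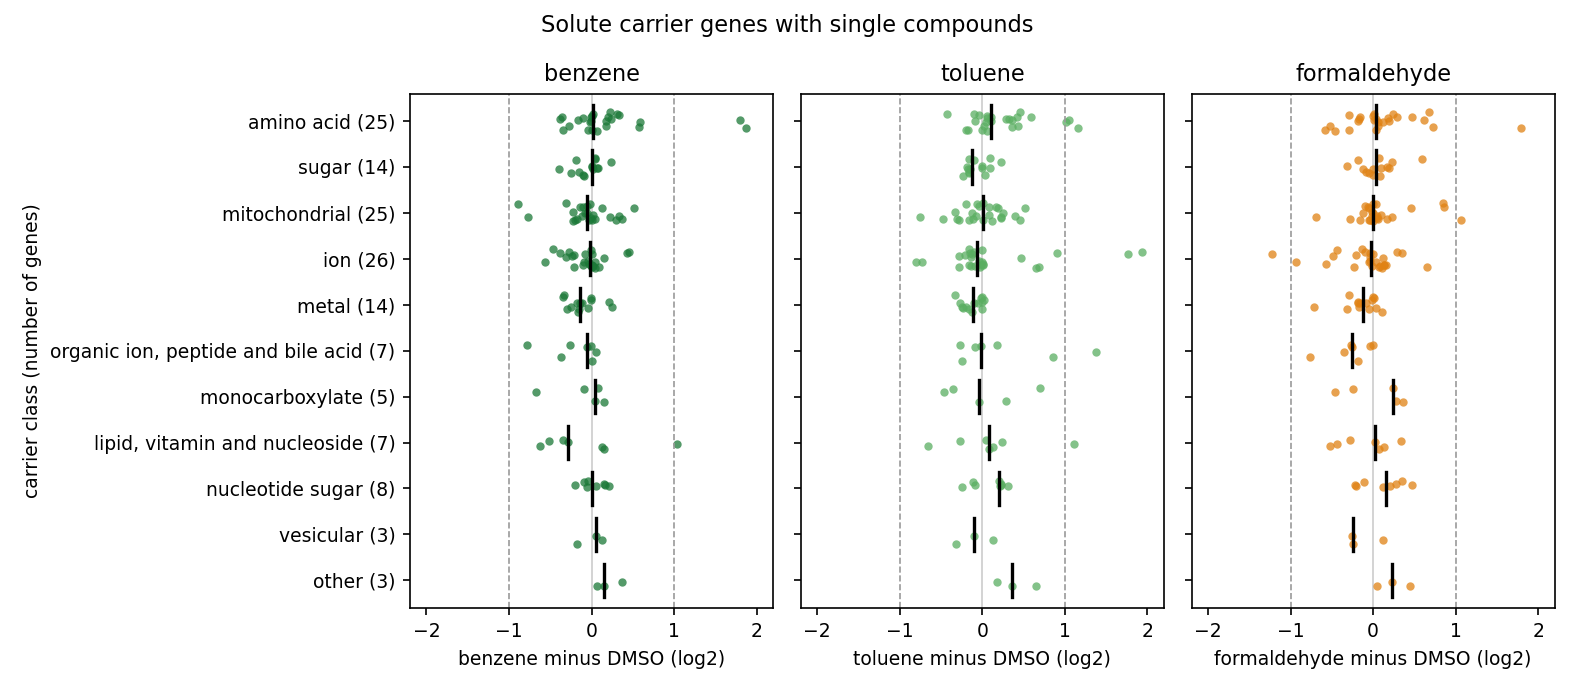
Difference from the DMSO array (log2, x axis) of every solute carrier gene with benzene, toluene or formaldehyde, by carrier class (y axis, number of genes in brackets). Points are genes, black bars class medians and dashed lines the 2-fold limit; nearly all points lie between the dashed lines, and toluene has 7 genes to the right of the limit.

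With toluene the largest differences lay in carriers known from the lining of gut and kidney, but not all such carriers differed. The gut carriers of neutral amino acids slc6a19a.1 and slc6a19b differed by 0.33 and -0.05 with toluene, and the intestinal phosphate carrier slc34a2b by 0.01. The sodium-dicarboxylate cotransporter slc13a2, which in mammals takes up citrate and succinate in kidney and gut, had log2 levels of 8.16 with benzene, 9.63 with toluene, 7.99 with formaldehyde and 12.55 with the mix, against 7.70 with DMSO. The toluene value was the highest of the 4 arrays without the mix, 1.93 above DMSO. The intestinal sodium-phosphate cotransporter slc34a2a had levels of 5.10 with benzene, 6.94 with toluene, 3.95 with formaldehyde and 8.59 with the mix, against 5.18 with DMSO. It was thus higher by 1.77 with toluene, about level with benzene (-0.08) and lower with formaldehyde (-1.23), the only solute carrier at least 2-fold lower on any single-compound array.

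The peptide carrier slc15a1b (PepT1, which takes up dipeptides and tripeptides from the gut lumen) had levels of 4.77 with benzene, 6.08 with toluene, 4.36 with formaldehyde and 8.71 with the mix, against 4.71 with DMSO, a difference of 1.37 with toluene. The ileal bile acid carrier slc10a2 had 6.84 with benzene, 8.05 with toluene, 6.44 with formaldehyde and 8.93 with the mix, against 7.20 with DMSO. Its toluene value was 0.85 above DMSO, under the limit, and 1.23 above the mean of the other 3 arrays without the mix, past it. Without the mix, all 3 of slc34a2a, slc15a1b and slc10a2 had their highest value with toluene and their lowest with formaldehyde. Levels of slc34a2a and slc15a1b were low there: both genes reached the median of all values, 7.02, on the mix array alone. The sulfate carrier slc13a1 and the citrate carrier slc13a5a differed by 0.65 and 0.47 with toluene, against 0.04 and 0.15 with benzene and 0.10 and 0.12 with formaldehyde. Both also reached the median of all values on the mix array alone. Among the 12 measured intestine markers, 6 were at least 2-fold higher with toluene (median difference 1.03), 1 with benzene (0.57) and 0 with formaldehyde, where 5 were at least 2-fold lower (-0.86). The enterocyte fatty acid-binding gene fabp2 differed by 2.11 with toluene and -1.42 with formaldehyde. None of the 5 measured kidney markers was 2-fold higher with toluene (median -0.15). The intestine markers moved with these carriers only in part. With toluene, the markers cdh17 (-0.14), also on the kidney list, and vil1 (-0.09) lay just below DMSO. With formaldehyde, slc34a2a, slc15a1b and slc10a2 lay below DMSO like the marker median, while slc13a2, slc13a1 and slc13a5a lay slightly above it. With benzene, slc10a2 differed by -0.37, unlike the marker median. The part of the intestine markers in the result was not tested.

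Besides these, 3 amino acid carriers and the folate carrier passed the limit with toluene. The heavy chain slc3a2b, which brings several amino acid exchangers to the cell surface, had levels of 5.80 with benzene, 6.22 with toluene, 5.33 with formaldehyde and 9.22 with the mix, against 5.21 with DMSO. Its difference of 1.02 with toluene lay just past the limit and became 0.99 after quantile normalization and 0.78 against the mean of the other 3 arrays without the mix. Gene slc3a2b reached the median of all values, 7.02, on the mix array alone. The proton-coupled folate carrier slc46a1 had levels of 8.50 with benzene, 8.58 with toluene, 7.03 with formaldehyde and 6.19 with the mix, against 7.47 with DMSO. Benzene and toluene were both about 2-fold above DMSO (1.04 and 1.11), and formaldehyde and the mix below it. Against the mean of the other 3 arrays without the mix, slc46a1 differed by 0.81 with benzene, 0.91 with toluene and -1.15 with formaldehyde. Skin markers were at least 2-fold higher in 9 of 14 genes with benzene (median difference 1.22) and 8 with toluene (1.07), and at least 2-fold lower in 9 with formaldehyde (-1.34), while 13 were higher with the mix. Exocrine pancreas markers had medians of 1.34 with benzene, 0.95 with toluene, -3.13 with formaldehyde and 2.49 with the mix. Their part in the slc46a1 differences was not tested.

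Benzene had its 3 genes in common with toluene: slc38a5b, slc6a11a and slc46a1. The GABA carrier slc6a11a had levels of 6.25 with benzene, 5.51 with toluene, 4.47 with formaldehyde and 4.85 with the mix, against 4.46 with DMSO. It stayed below the median of all values on every array, and benzene and toluene were the highest (1.79 and 1.05). With toluene its difference from the mean of the other 3 arrays without the mix was 0.45. The genes nearest to the limit with benzene were slc3a2b at 0.59 and the branched-chain amino acid carrier slc43a2a at 0.58, and on the lower side slc25a10b, the mitochondrial dicarboxylate carrier, at -0.89 and the lysosomal peptide and histidine carrier slc15a4 at -0.78. Thus a gap lay between the 3 genes inside the limit on the higher side and the next below it.

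The glutamine carrier slc38a5b was the only solute carrier 2-fold apart on all 3 single-compound arrays. Its levels were 8.45 with benzene, 7.74 with toluene, 8.37 with formaldehyde and 9.91 with the mix, against 6.58 with DMSO. All 4 exposed arrays lay above DMSO, by 1.87 with benzene, 1.16 with toluene, 1.79 with formaldehyde and 3.33 with the mix. Because the DMSO value is the lowest of the 5, the result rests on that array: set against the mean of the other arrays without the mix, the differences were 0.89 with benzene, -0.06 with toluene and 0.78 with formaldehyde. Exocrine pancreas markers were at least 2-fold higher in 12 of 14 genes with benzene and in 6 of 14 with toluene. With formaldehyde 14 of 14 were at least 2-fold lower. Their part in the slc38a5b differences was not tested.

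Formaldehyde had slc38a5b and the ADP/ATP carrier slc25a4 at least 2-fold higher and slc34a2a at least 2-fold lower. Gene slc25a4 encodes the muscle form of the carrier that exchanges ATP made in mitochondria for cytosolic ADP, and had levels of 11.10 with benzene, 11.25 with toluene, 11.87 with formaldehyde and 13.01 with the mix, against 10.80 with DMSO. The order of the 5 arrays, from DMSO over benzene, toluene and formaldehyde to the mix, was also that of 9 of the 14 measured skeletal muscle markers and not of the other 5. One of the 9, pvalb2, had 12.92 with benzene, 13.36 with toluene, 13.78 with formaldehyde and 14.62 with the mix, against 12.14 with DMSO. Of the 14 markers, 4 were at least 2-fold higher with formaldehyde (median 0.66), and their differences ran from -0.10 (tnnt3a) to 1.64 (pvalb2). The part of the muscle markers in the slc25a4 differences was not tested. Against the mean of the other 3 arrays without the mix, the formaldehyde difference of slc25a4 was 0.82, under the limit. Just outside the limit were mitoferrin 1 (slc25a37), which imports iron for haem synthesis, at 0.86, the mitochondrial carrier slc25a48 at 0.85, and on the lower side slc12a8 at -0.94 and slc10a2 at -0.76.

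**Figure D2:**
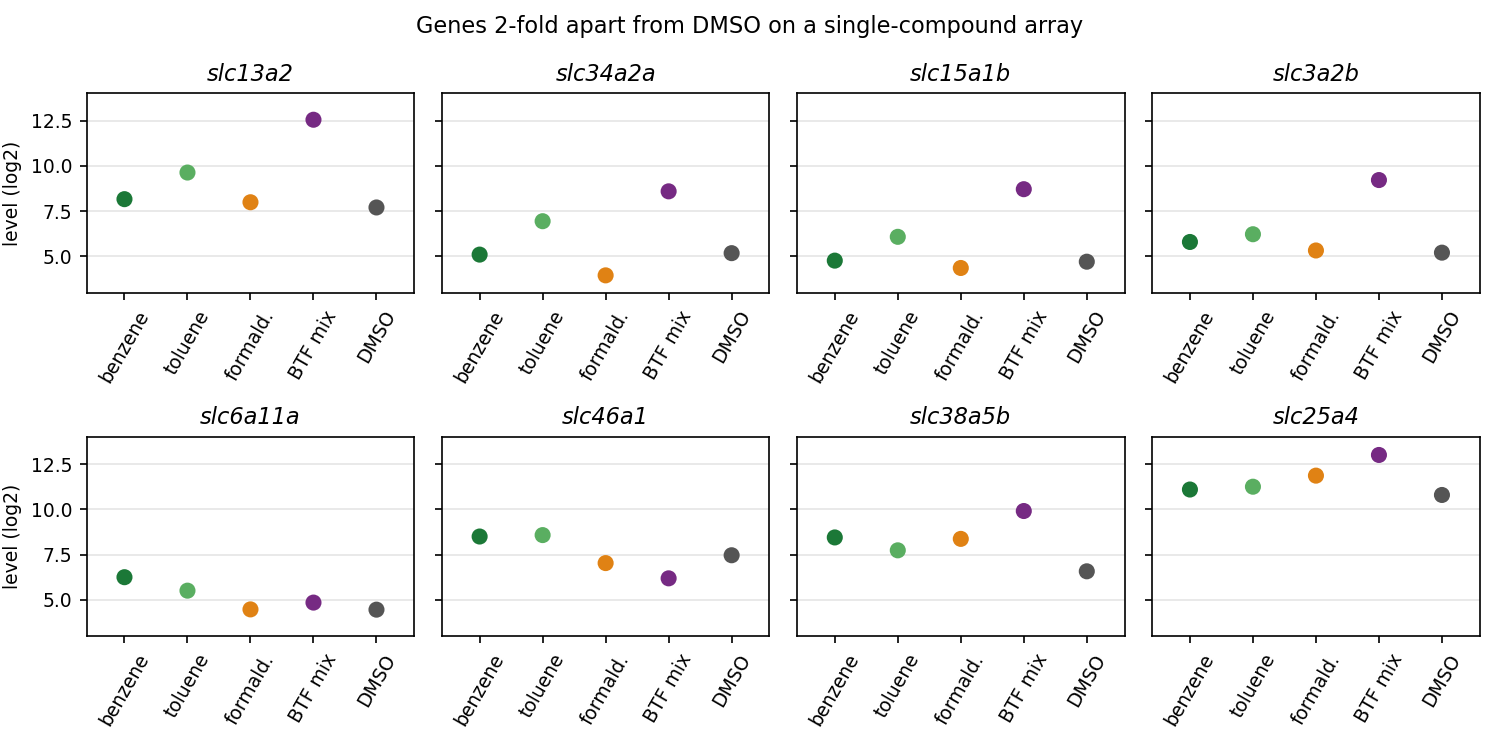
Log2 level (y axis) on each of the 5 arrays (x axis) of the 8 solute carrier genes at least 2-fold apart from DMSO on 1 or more single-compound arrays. Each point is 1 array; slc13a2, slc34a2a and slc15a1b share a high toluene point, whereas slc38a5b has a low DMSO point.

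Some genes differed from DMSO by a like amount with every single compound. The mitochondrial folate and FAD carrier slc25a32a had 6.40 with benzene, 6.41 with toluene, 6.47 with formaldehyde and 7.34 with the mix, against 7.16 with DMSO, so DMSO was the highest of the 4 arrays without the mix. The chloride cotransporter family member slc12a8 had 7.04 with benzene, 6.88 with toluene, 6.67 with formaldehyde and 6.52 with the mix, against 7.61 with DMSO, again with DMSO highest. The fatty acid transport protein slc27a6 differed by -0.62, -0.66 and -0.53 with benzene, toluene and formaldehyde. In the other direction slc25a44b, a branched-chain amino acid carrier of mitochondria, differed by 0.52, 0.52 and 0.45. Each of these rests on the same DMSO value.

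Toluene differs from benzene by 1 methyl group, but their doses are not given, so their values are only set side by side. The genes with the largest excess of toluene over benzene were slc34a2a (log2 6.94 with toluene and 5.10 with benzene), slc13a2 (log2 9.63 with toluene and 8.16 with benzene), slc15a1b (log2 6.08 with toluene and 4.77 with benzene), and slc10a2 (log2 8.05 with toluene and 6.84 with benzene). These 4 were at least 2-fold higher on the toluene array than on the benzene array, 0 were at least 2-fold lower, and the median difference over the 137 genes was 0.03. The share of all genes was not taken for this pair of arrays, so the count is not read as a trait of the solute carriers. The hair cell motor protein prestin (slc26a5) had 7.91 with benzene, 7.07 with toluene and 7.91 with formaldehyde, against 7.87 with DMSO.

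With the BTF mix the solute carriers diverged widely. Of 137 genes, 47 (34.3%) were at least 2-fold higher than with DMSO and 26 (19%) at least 2-fold lower, beside 20.6% and 27.8% of all 8793 genes. The median difference of the solute carriers was 0.32, and that of all genes -0.01. By class, amino acid carriers had 16 of 25 genes at least 2-fold higher and 5 lower, sugar carriers 3 of 14 higher and 3 lower, mitochondrial carriers 6 of 25 higher and 3 lower, and ion carriers 8 of 26 higher and 2 lower. The class medians were 1.43, 0.61, 0.18 and 0.45 in the same order. The sugar median was 0.28 after quantile and 0.16 after cyclic loess normalization, and the ion median 0.34 and 0.20, so the order of the sugar, mitochondrial and ion classes changed with the normalization. With 1 array per condition, the gaps between classes could not be tested.

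**Figure D3:**
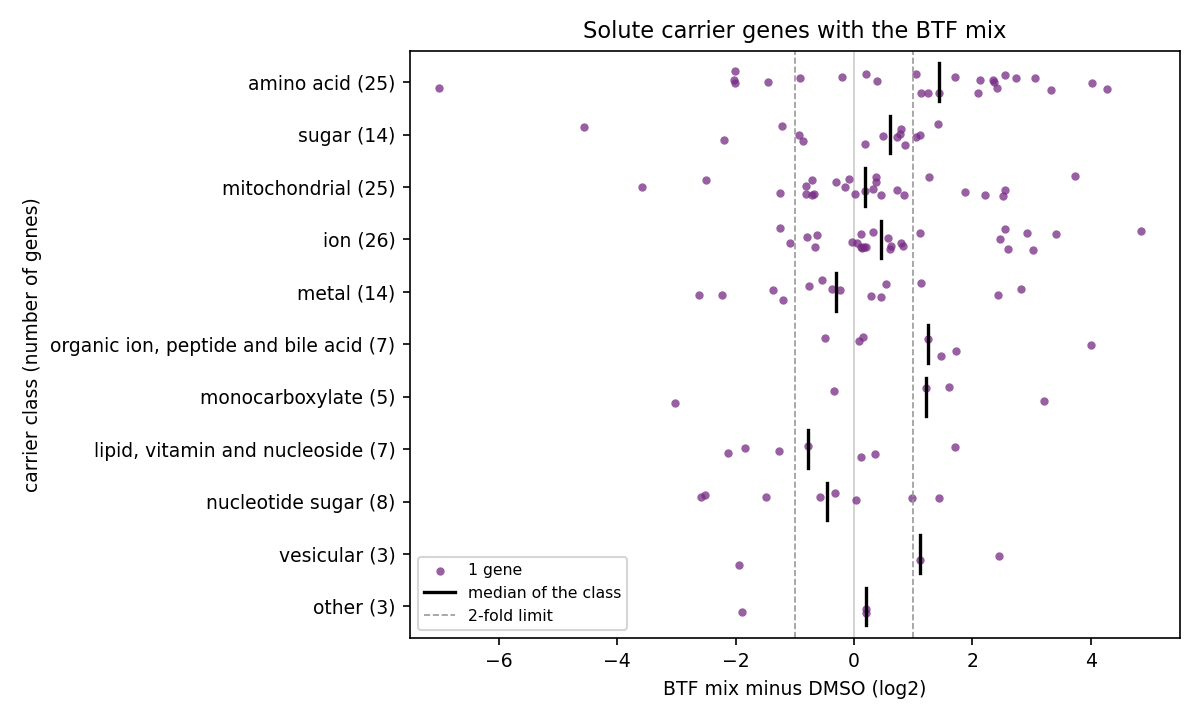
Difference between the BTF mix and DMSO arrays (log2, x axis) of every solute carrier gene, by class (y axis, number of genes in brackets). Amino acid carriers lie mostly right of the upper 2-fold limit, with slc7a1b far to the left at -7.01; mitochondrial carriers lie mostly between the limits.

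The lowest amino acid carrier with the mix was slc7a1b, a carrier of arginine, lysine and ornithine in mammals. It had 7.11 with the mix, 13.85 with benzene, 14.14 with toluene and 14.19 with formaldehyde, against 14.12 with DMSO, which is 129-fold lower with the mix than with DMSO (-7.01 on the log2 scale). Its 4 other arrays spanned a range of 0.33, and its difference lay between those of the oocyte genes zar1 (-7.60) and nanog (-6.81). The lysosomal glutamine carrier slc38a7 had 6.62 with the mix, 8.61 with benzene, 8.67 with toluene and 8.69 with formaldehyde, against 8.63 with DMSO, and its other probe set differed by -1.97, against -2.01 here. Its relatives slc38a6 and slc38a8b differed by -2.03 and -2.02, so that 3 of the 6 measured slc38 genes were at least 2-fold lower.

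The other 3 slc38 genes were at least 2-fold higher with the mix. The glutamine and alanine carrier slc38a2 had 9.31 with the mix, 6.47 with benzene, 6.86 with toluene and 6.73 with formaldehyde, against 6.26 with DMSO. Gene slc38a4 had 9.05 with the mix, 6.75 with benzene, 7.27 with toluene and 7.54 with formaldehyde, against 6.91 with DMSO, and slc38a5b has been given above. The family was thus evenly divided in direction.

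Among amino acid carriers the values furthest above DMSO with the mix were in families slc43 and slc3. The neutral amino acid carrier slc43a2a had 10.90 with the mix, 7.21 with benzene, 6.99 with toluene and 7.36 with formaldehyde, against 6.63 with DMSO, 19.2-fold higher with the mix than with DMSO. Its relative slc43a1a, in mammals a carrier of branched-chain amino acids too, had 8.36 with the mix, against 9.27 with DMSO. Heavy chain slc3a2b was 16.1-fold higher with the mix, and its copy slc3a2a had 9.80 with the mix, against 7.38 with DMSO. Of the light chains and other slc7 carriers, slc7a8a (LAT2) had 8.84 with the mix, against 6.75 with DMSO, with an almost equal difference on its other probe set (2.15 against 2.09), and the cationic amino acid carrier slc7a3a had 8.95 with the mix, against 7.24 with DMSO.

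Amino acid carriers of the gut and of glia were higher as well. Both copies of the brush border carrier of neutral amino acids, slc6a19a.1 and slc6a19b, stayed below 6.1 on the 4 other arrays and differed by 2.35 and 2.55 with the mix. The gene for collectrin (cltrn), which in mammals brings this carrier to the membrane of the kidney, had 8.26 with the mix, against 5.44 with DMSO. The glial glutamate carrier slc1a2b had 10.15 with the mix, against 7.79 with DMSO. The second one, slc1a3a, had 8.64 with the mix, against 7.39 with DMSO. Neuron and glia markers had a median difference of 1.81 and intestine markers of 2.80 on the same array, and their part in these results was not tested. The vesicular GABA carrier slc32a1 differed by 1.13, which became 0.90 after quantile and 0.59 after cyclic loess normalization.

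Sugar carriers were divided with the mix, and the largest difference was that of a lower gene. The class was formed by family number alone, so its counts do not show that each member carries sugars. The carrier gene slc2a15b, known in medaka from pigment cells, had 5.13 with the mix, 9.51 with benzene, 9.60 with toluene and 9.51 with formaldehyde, against 9.69 with DMSO, 23.6-fold lower with the mix. Its other probe set differed by less, -1.93. The 3 measured genes of the melanophore and iridophore list were melanophore genes (dct, tyr and pmelb), with a median difference of -0.03 with the mix. Pigment cells of other kinds had no measured marker on the list. Oocyte markers had a median difference of -6.75 on the same array. The part of either set in this result was not tested. Gene slc2a10, the mammalian GLUT10, had 5.85 with the mix, 7.90 with benzene, 7.90 with toluene and 7.96 with formaldehyde, against 8.05 with DMSO. Of the main glucose carriers, slc2a2 (the liver form) had 5.24 with the mix, 4.28 with benzene, 4.14 with toluene and 4.46 with formaldehyde, against 4.38 with DMSO, and slc2a3a (the neuronal form in mammals) had 6.29 with the mix, 5.18 with benzene, 5.003 with toluene and 5.35 with formaldehyde, against 5.18 with DMSO. The difference of slc2a3a, 1.11, was under the limit after quantile (0.89) and cyclic loess (0.55) normalization.

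Carriers of sugar phosphates lay within the 2-fold limit with the mix on the probe sets used, though the other probe set of slc37a4a differed by 1.35. The carrier slc37a4a, which brings glucose phosphate into the endoplasmic reticulum, had 8.16 with the mix, against 7.44 with DMSO, a difference that passed the limit after quantile normalization (1.06). Its copy slc37a4b had 5.29 with the mix, against 5.10 with DMSO, and slc37a2 had 9.28 with the mix, against 10.14 with DMSO. The lactate carrier slc5a12, grouped here by its family number, differed by 1.42, or 0.89 after cyclic loess normalization. The sugar class median of 0.61 turned to -0.93 when only the 7 genes were kept whose highest value reached the median of all values, so the direction of that median is not settled. No sugar carrier was 2-fold apart with benzene, toluene or formaldehyde. Of all genes, 1.65%, 1.74% and 1.1% were higher with these compounds in that order and 0.842%, 0.535% and 1.94% lower. With 14 sugar carriers the absence is therefore not read as a trait of the class.

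Of 25 mitochondrial carriers, 16 lay within the 2-fold limit with the mix, beside 4535 of all 8793 genes, but single members differed strongly. The citrate carrier slc25a1a, which exports citrate for fatty acid and sterol synthesis, had 7.23 with the mix, 10.74 with benzene, 10.69 with toluene and 10.68 with formaldehyde, against 10.81 with DMSO, 11.9-fold lower with the mix. The glutathione carrier slc25a39 had 7.79 with the mix, 10.19 with benzene, 10.37 with toluene and 10.22 with formaldehyde, against 10.29 with DMSO, and its other probe set differed by -2.11, against -2.50 here. The ATP-magnesium and phosphate carrier slc25a25a had 10.09 with the mix, 11.33 with benzene, 11.56 with toluene and 11.39 with formaldehyde, against 11.34 with DMSO. Its difference of -1.26 was -0.89 after cyclic loess normalization. On the 4 arrays without the mix the values of these genes spanned 0.13 (slc25a1a), 0.18 (slc25a39) and 0.23 (slc25a25a).

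Of the carriers of the ATP supply chain, slc25a4 and slc25a3a were at least 2-fold higher with the mix. The ADP/ATP carrier slc25a4 was 4.63-fold higher than with DMSO, and the phosphate carrier slc25a3a had 8.81 with the mix, against 7.54 with DMSO. Its copy slc25a3b had 12.82 with the mix, against 11.97 with DMSO, a difference of 0.85, or 1.02 after quantile normalization. The mitochondrial carrier furthest above DMSO was slc25a48, a choline carrier in mammals, with 8.50 with the mix, 4.46 with benzene, 4.78 with toluene and 5.62 with formaldehyde, against 4.77 with DMSO. The carrier slc25a43, of unsettled substrate, had 8.12 with the mix, 5.38 with benzene, 5.72 with toluene and 5.60 with formaldehyde, against 5.60 with DMSO. Gene copies slc25a55a and slc25a55b differed by 2.54 and 1.87. Skeletal muscle markers had a median difference of 1.84 on this array, and their part in the higher slc25a4 value was not tested.

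Other mitochondrial carriers with named substrates lay within the 2-fold limit with the mix. The carnitine-acylcarnitine carrier slc25a20, needed for fatty acid oxidation, had 9.88 with the mix, 9.99 with benzene, 10.29 with toluene and 10.04 with formaldehyde, against 10.04 with DMSO. Mitoferrin 1 (slc25a37) differed by -0.71, and slc25a38b, a glycine carrier for haem synthesis, by 0.02. On the same array 5 of 6 erythrocyte markers were at least 2-fold higher, with a median difference of 2.59. Their part in the values of these 2 carriers was not tested.

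Among ion carriers slc13a2 was the furthest above DMSO with the mix, 28.8-fold. All 3 genes of its family were at least 2-fold higher, with 3.02 for slc13a1 and 2.47 for slc13a5a. Gene slc34a2a was higher by 3.42. The red cell anion exchanger slc4a1a (band 3) had 8.73 with the mix, 6.24 with benzene, 6.71 with toluene and 5.77 with formaldehyde, against 5.81 with DMSO. Its difference of 0.90 with toluene was just under the limit. Erythrocyte markers had a median difference of 2.59 with the mix and 0.16 with toluene. On the toluene array cahz differed by 1.36, hbaa1 by 0.91, alas2 by 0.19, epb41b by 0.13, sptb by -0.06 and hbba2 by -0.33. Their part in the slc4a1a differences was not tested.

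Further ion carriers lay on both sides of DMSO with the mix. The anion exchanger slc4a2a had 8.38 with the mix, against 5.83 with DMSO, and its other 2 probe sets differed by 1.04 and 1.03. The phosphate carrier slc20a1a had 7.22 with the mix, 4.71 with benzene, 5.31 with toluene and 5.27 with formaldehyde, against 4.62 with DMSO, and its copy slc20a1b had 10.06 with the mix, 9.17 with benzene, 9.35 with toluene and 9.45 with formaldehyde, against 9.48 with DMSO, a difference of 0.58 that became 1.38 after cyclic loess normalization. The potassium-chloride cotransporter slc12a7b differed by 1.12. Lower were the sodium, calcium and potassium exchanger slc24a4a at -1.24 (-0.80 after cyclic loess normalization) and slc12a8 at -1.09 (-0.53 against the mean of the 4 other arrays). The sodium-proton exchanger slc9a7 was within the limit, at -0.79, and the sodium-chloride cotransporter slc12a3 differed by 0.12, against 1.63 on its other probe set.

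**Figure D4:**
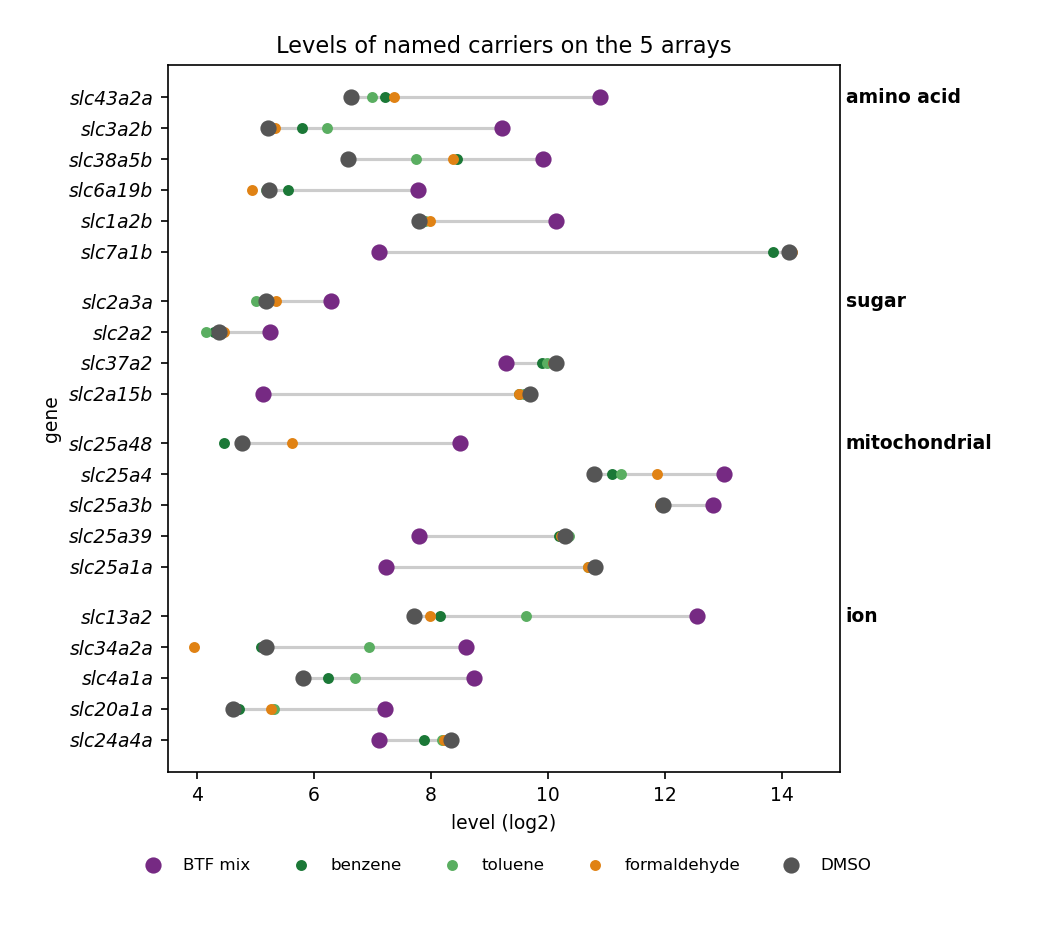
Log2 level (x axis) of named amino acid, sugar, mitochondrial and ion carriers (y axis) on the BTF mix, benzene, toluene, formaldehyde and DMSO arrays, with a grey line between mix and DMSO. The mix point stands away from a cluster of the other 4 points in most rows, to the left for slc7a1b, slc2a15b, slc25a1a and slc25a39 and to the right for slc43a2a, slc3a2b and slc13a2.

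With the mix, 3 of the 14 metal carriers lay at least 2-fold above DMSO and 4 as far below it (21.4% and 28.6%), shares close to the 20.6% and 27.8% of all genes. The zinc importers of family slc39 held all 4 lower genes, among their 6 members. The Golgi zinc carrier slc39a13 had 6.12 with the mix, 8.97 with benzene, 8.52 with toluene and 8.01 with formaldehyde, against 8.73 with DMSO, slc39a6 had 7.61 with the mix, 9.81 with benzene, 9.61 with toluene and 9.88 with formaldehyde, against 9.85 with DMSO, and slc39a7, which releases zinc from the endoplasmic reticulum, differed by -1.38 (-0.58 after cyclic loess normalization, and -1.65 on its other probe set). The fourth, slc39a9, has probe sets that disagree, at -1.21 and 1.16. In contrast slc39a3 had 8.18 with the mix, 5.58 with benzene, 5.36 with toluene and 5.18 with formaldehyde, against 5.36 with DMSO. The zinc exporters of family slc30 showed no 2-fold difference in 5 genes, with slc30a7 at -0.77 and slc30a6 at -0.54.

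The iron exporter and the copper importer were at least 2-fold higher with the mix, unlike most slc39 genes. The iron exporter ferroportin (slc40a1), known in zebrafish from the anaemic weissherbst mutant, had 9.05 with the mix, 6.38 with benzene, 6.38 with toluene and 6.45 with formaldehyde, against 6.63 with DMSO. The iron importer slc11a2 (DMT1) differed by 0.29, or 1.08 after cyclic loess normalization. The copper importer slc31a1 had 10.40 with the mix, against 9.27 with DMSO, and its other probe set differed by a like amount, 1.19 against 1.13. The haem carrier slc48a1b had 8.71 with the mix, 10.66 with benzene, 10.95 with toluene and 11.05 with formaldehyde, against 10.59 with DMSO, a difference of -1.89 with the mix.

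Of the smaller classes, monocarboxylate carriers had 3 of 5 genes at least 2-fold higher and 1 lower with the mix, carriers of organic ions, peptides and bile acids 4 of 7 higher and 0 lower, and carriers of lipids, vitamins and nucleosides 1 of 7 higher and 3 lower, beside 20.6% and 27.8% of all genes. The lactate exporter slc16a3b had 8.56 with the mix, 11.73 with benzene, 11.54 with toluene and 11.94 with formaldehyde, against 11.58 with DMSO, while slc16a9a had 9.54 with the mix, 6.38 with benzene, 6.62 with toluene and 6.62 with formaldehyde, against 6.34 with DMSO. Gene slc16a12b differed by 1.61 and slc16a9b by 1.21, while slc16a1b lay within the limit at -0.34. The monocarboxylate class holds all slc16 genes by family number, so its counts do not show that each member carries monocarboxylates. The gene for basigin (bsg), which in mammals escorts the lactate carriers to the membrane, differed by 0.54. Peptide carrier slc15a1b was 16.1-fold higher, bile acid carrier slc10a2 higher by 1.73, and the organic cation carrier slc22a2 by 1.47, with 2.75 on its other probe set. The fatty acid carrier and acyl-CoA synthetase slc27a2a had 9.43 with the mix, against 7.73 with DMSO, whereas slc27a6 was lower, with 6.78 with the mix, against 8.90 with DMSO. The nucleoside carrier slc29a2 differed by -1.84 and the folate carrier slc46a1 by -1.28.

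Nucleotide sugar carriers load the Golgi and endoplasmic reticulum. The class of that name had 3 of 8 genes at least 2-fold lower and 1 higher with the mix, beside 27.8% and 20.6% of all genes. It holds all slc35 genes by family number, so its counts do not show that each member carries nucleotide sugars. Gene slc35e1 had 6.51 with the mix, 8.93 with benzene, 8.91 with toluene and 8.92 with formaldehyde, against 9.03 with DMSO. Gene slc35f2 had 5.86 with the mix, 8.60 with benzene, 8.67 with toluene and 8.73 with formaldehyde, against 8.44 with DMSO, and slc35h1 differed by -1.49, or -0.69 after cyclic loess normalization. Of the vesicular carriers, the sialic acid exporter of lysosomes slc17a5 had 7.60 with the mix, against 5.14 with DMSO, the vesicular nucleotide carrier slc17a9b 6.68 with the mix, against 8.63 with DMSO, with 0.00 on its other, low-level probe set, and the acetylcholine carrier slc18a3a 5.91 with the mix, against 4.802 with DMSO, which became a difference of 0.79 after quantile and 0.59 after cyclic loess normalization. Gene slc7a6os, which is no carrier, differed by -1.45, or -0.90 after cyclic loess normalization, and slc4a1ap by 0.17.

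Zebrafish keep a and b copies of many genes from a whole genome duplication, and for 10 pairs both copies were measured. Both members had the same sign with the mix in all 10 pairs, but in 3 of them only the a copy passed the 2-fold limit: slc20a1, slc25a3 and slc34a2. The intestinal phosphate carrier pair was the most unequal, with 3.42 for slc34a2a and 0.83 for slc34a2b. The same pair differed on the toluene array (1.77 and 0.01), while with formaldehyde both were lower (-1.23 and -0.57). For slc16a9 the a and b copies differed from DMSO by 3.203 and 1.21, and the b copy was under the limit after quantile (0.92) and cyclic loess (0.72) normalization. For slc43a2 the values were 4.27 and 2.73, and only for slc3a2, slc6a19 and slc25a44 did the b copy have the more positive value. Copies can be similar in sequence, so a probe set may also bind the other copy's transcript.

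**Figure D5:**
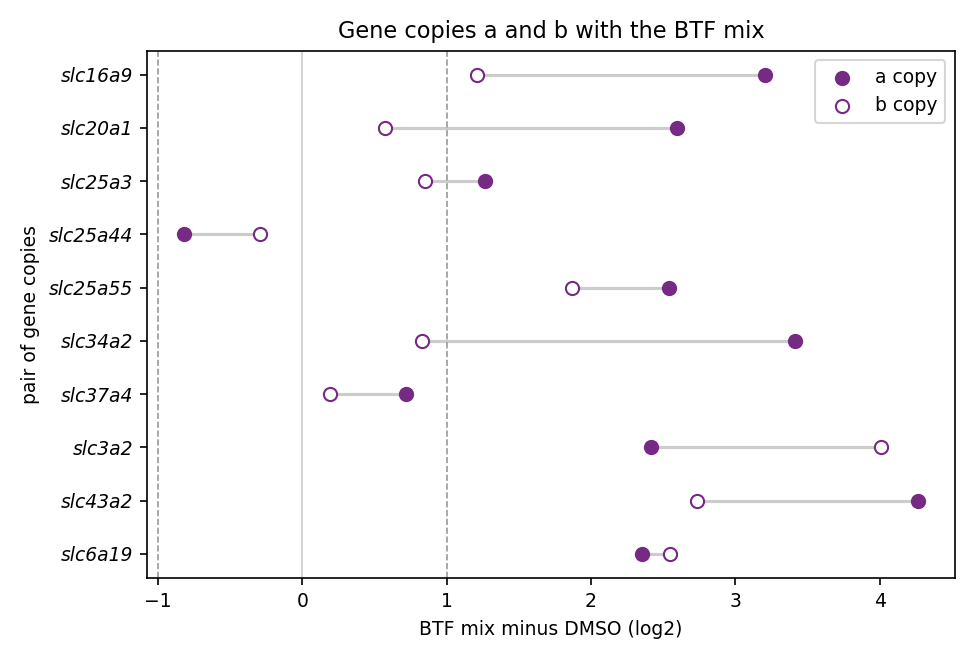
Difference between the BTF mix and DMSO arrays (log2, x axis) of the a copy (filled) and b copy (open) of 10 solute carrier gene pairs (y axis), with dashed lines at the 2-fold limits. In 7 pairs the copies lie on the same side of the limit, and in slc20a1, slc25a3 and slc34a2 only the a copy lies past it.

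Genes that work with the carriers were listed as well, with earlier results of these data known. Of 33 listed sodium pump, proton pump and docking partner genes, 18 were measured. With the mix 9 were at least 2-fold higher and 1 lower, beside 20.6% and 27.8% of all genes, with a median difference of 1.28. The sodium pump subunit atp1b1a had 11.52 with the mix, 9.35 with benzene, 9.44 with toluene and 8.23 with formaldehyde, against 9.10 with DMSO. The pump subunit atp1a1a.2 had 8.66 with the mix, 6.58 with benzene, 7.13 with toluene and 5.93 with formaldehyde, against 5.91 with DMSO. Pump subunit atp1b3b was the lower one, with 10.06 with the mix, against 11.35 with DMSO. With toluene 1 of the 18 was at least 2-fold higher, atp1a1a.2 at 1.22, and with benzene and formaldehyde 0 were 2-fold apart. Of all genes, 1.74% were higher with toluene, 1.65% with benzene and 1.1% with formaldehyde, and 0.535%, 0.842% and 1.94% lower.

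Of 58 carriers with other names, 21 were measured, and 6 were at least 2-fold higher and 2 lower with the mix, where 20.6% of all genes were higher and 27.8% lower, with a median of 0.09. The uncoupling protein ucp1, a proton carrier of the slc25 family, had 13.15 with the mix, 11.53 with benzene, 10.96 with toluene and 11.76 with formaldehyde, against 10.60 with DMSO. Gene ucp1 was the only one of the 21 that was 2-fold apart with a single compound, by 1.16 with formaldehyde, where 1.1% of all genes were higher. Its relative ucp2 had 11.72 with the mix, 11.93 with benzene, 11.57 with toluene and 12.10 with formaldehyde, against 11.63 with DMSO, and ucp3 had 10.04 with the mix, 6.77 with benzene, 7.53 with toluene and 7.97 with formaldehyde, against 7.22 with DMSO.

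Where a gene had more than 1 probe set, the sign of a small difference often depended on the probe set. Among the 137 genes, 18 had 2 or 3 probe sets. Within such genes, differences from DMSO were apart by a median of 0.15 with benzene, 0.15 with toluene, 0.12 with formaldehyde and 0.49 with the mix. Probe sets lay on both sides of 0 in 8 of the 18 genes with benzene, 6 with toluene, 8 with formaldehyde and 2 with the mix. The 2 with the mix were slc12a9 (0.62 and -2.29) and slc39a9, so neither has a settled direction. Identical values on 2 or more arrays occurred in 28 of the 137 genes, which median polish, a step of RMA, can give, so a difference of exactly 0 is no sign of precision.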

How the data were processed

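The authors deposited 1 log2 value for each probe set on each array. Affymetrix Expression Console 1.1, RMA and MAS5 are named in the submitters' processing notes, with no statement of which step each did. All values lay between 3.15 and 15.04, and the base of the log was taken from that range. Quantile normalization, a step of RMA, makes arrays alike in their distribution of values. A class of transcripts missing from 1 array can then raise the others there, and very high values can be compressed. Whether this entered the values here was not tested. From these values, 115 control probe sets were left out and 15502 others analysed; 10795 were paired with exactly 1 symbol, 135 with several and 4572 with none. All 158 probe sets of the solute carriers were matched by Entrez identifier to NCBI RefSeq's gene table (assembly GRCz12tu) for current symbols.

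The log2 value on the DMSO array was subtracted from that on each exposed array, and a difference of at least 1 counted as 2-fold. With 1 array per condition there was no test, and the number of arrays limits the precision. Background shares were taken over all 8793 genes in the same way. The members, classes, marker and partner lists were chosen with earlier results of these data known. Named genes are the 8 largest differences per comparison and direction among genes reaching the median of all values, the 3 genes of highest mean per class, a list of well known carriers (23 of 49 measured) and the copies of these, 77 genes in all, most of which are printed. A further 22 genes were chosen after their values were seen: slc6a11a, slc13a1, slc13a5a, slc38a2, slc38a6, slc38a7, slc25a43, slc25a55a, slc25a55b, slc39a3, slc39a6, slc2a10, slc4a2a, slc7a3a, slc4a1ap, slc12a9, slc39a9, slc5a12, slc22a2, slc29a2, slc16a12b and slc25a10b. Alternatives were quantile and cyclic loess normalization (limma 3.58.1 in R 4.3.3), 2 other choices of probe set, a level filter and other arrays to set against. The counting was tested on simulated data in which the added changes lay well past the 2-fold limit. That setting largely fixed the outcome, so it says nothing about the 2-fold differences on these arrays. Python 3.11.15 and pandas 2.3.3 were used.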

Additional observations from a re-analysis of the deposited data

Results flagged for a closer look

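A total of 5 probe sets were paired with a solute carrier symbol together with other symbols and stayed out of the 137 genes. On 1 of them the BTF mix value was above the DMSO value by 3.02, a signal in data outside the comparisons made here; its levels were 10.10 with the mix, 7.29 with benzene, 7.33 with toluene and 6.62 with formaldehyde, against 7.08 with DMSO. No gene is named from it.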

How the results depend on the processing

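No paired analysis was possible because each condition has 1 array. With no replicates, a class median was taken to have moved when it shifted by more than the median gap between probe sets of a gene. Of 264 class medians recomputed under 6 alternatives, 243 shifted by less than that gap, which was 0.49 with the mix, so sizeable shifts there are among them. Medians of metal carriers with the mix ran from -0.46 to 0.14 and of sugar carriers from -0.93 to 0.63 over the alternatives. Of 48 counts of 2-fold genes, 44 stayed within 1.5 times. Set against the mean of the other arrays without the mix, the higher counts were 1 (benzene), 4 (toluene) and 0 (formaldehyde), and the lower count with formaldehyde was 2; slc38a5b with toluene had the opposite sign, -0.062. In that setting the medians were -0.14 (benzene) and -0.016 (formaldehyde) for monocarboxylate carriers, -0.11 (formaldehyde) for organic ion, peptide and bile acid carriers, -0.084 (benzene), 0.18 (toluene) and 0.048 (formaldehyde) for the class of others, and -0.074 (formaldehyde) for vesicular carriers. The level filter, which leaves fewer genes, gave medians with the mix of 2.11 for amino acid, 0.97 for ion, -0.93 for sugar, -1.28 for lipid, vitamin and nucleoside, 0.093 for monocarboxylate, -1.04 for nucleotide sugar, 0.26 for vesicular and -0.84 for other carriers; with formaldehyde it gave -0.28 for lipid, vitamin and nucleoside carriers and with toluene 0.12 for monocarboxylate carriers. The filter keeps a gene whose highest value on any array, the mix included, reaches the median of all values. Of the solute carriers, 25 reached it on the mix array alone and 20 on some other array but not on the mix. The filter thus chooses genes partly by their values with the mix, so its medians there are no independent check. Cyclic loess normalization gave 0.72 for monocarboxylate and 0.59 for vesicular carriers with the mix. Averaging the probe sets of a gene gave -0.10 for vesicular carriers with formaldehyde, and the probe set with the highest single value gave 0.17 for organic ion, peptide and bile acid carriers with toluene. Apart from this choice of genes by the filter, which is part of its design, the causes of the shifts were not tested. Of 2324 differences of named genes under the alternatives, 27 came under the limit, 8 passed it with the same sign and 1 past it reversed. The other 2288 were counted as the same. That count also takes in a difference within the limit that passed it with the opposite sign. This befell slc12a9 with the mix, at 0.62 in the main setting and -2.29 on the probe set with the highest single value. Part of this count was fixed in advance. The level filter leaves the values of a kept gene as they are, so its 344 differences were the same by design. The 2 other choices of probe set cannot change a gene with 1 probe set.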
